A study of Rattus norvegicus with 5 samples.

Results

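The genes described here encode the nuclear subunits of the respiratory chain in the rat retina. They were chosen by symbol from the 25399 genes of the deposited count matrices, taking every symbol that starts Nduf other than the Ndufaf assembly factors, Sdha to Sdhd, every symbol that starts Uqcr, Cyc1, the Cox4 to Cox8 families and every symbol that starts Atp5, with pseudogenes left out. The choice gave 89 gene IDs under 85 symbols: 37 for complex I, 4 for complex II, 10 for complex III, 21 for complex IV and 17 for complex V. Ndufa4 and Ndufa4l2 were counted with complex IV, where the NDUFA4 protein resides. Cox6b1, Uqcrb, Ndufa10l1 and Ndufv3 each stand for a pair of IDs, and how reads were divided between such near copies is uncertain.

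Single retinal cells of SD rats were captured with the 10x Genomics droplet method after trypsin dissociation, and transcripts were counted as unique molecular identifiers (UMIs). The control library came from a rat given citrate buffer, labelled week 0. The diabetic libraries came from rats given a single 45 mg/kg dose of streptozotocin (STZ), a toxin of pancreatic beta cells, with blood glucose above 200 mg/dL, and then kept for 2, 4 or 8 weeks on a diet rich in sugar and fat. Treatment, diet and time after injection therefore differ together between control and diabetic libraries. The comparisons use 1 library per group, so no test between weeks was possible; control replicate 1 was not analysed here. Intervals beside ratios are exact 95% intervals for counting error only and hold nothing of the variation between animals.

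The respiratory chain passes electrons from NADH (complex I) and succinate (complex II) through complex III to oxygen at complex IV, and complex V makes ATP from the resulting proton gradient. Most subunits are encoded in the nucleus and imported; a small set at the catalytic centres is encoded by mitochondrial DNA. Photoreceptors pack mitochondria into the inner segment, next to the outer segment where light is detected, and the retina is among the tissues with the highest oxygen use.

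Barcodes with at least 200 genes and at most 20% mitochondrially encoded UMIs, with predicted doublets removed, left 29779 cells and 58381284 UMIs, of which 1775264 came from the 89 genes. The 4 libraries held 4283 to 10984 cells with median depths of 902 to 1408 UMIs, and any pair of them shared 13 to 70 barcodes. Clusters were formed without the respiratory chain genes and without mitochondrially encoded genes and were named from marker genes, so that "rods" stands for a rod-like class and likewise for the others. Measured markers were counted from 20 CPM (counts scaled to a total of 1000000 UMIs per library and class). In their own class, 13 of 13 reached it in rods, 10 of 11 in cones and 13 of 15 in bipolar cells. The counts were 10 of 12 in amacrine cells, 12 of 13 in Müller glia and 11 of 11 in microglia. Rod markers also reached it elsewhere: 11 of 13 in cones and in bipolar cells, and 10 of 13 in amacrine cells, Müller glia and microglia. In bipolar cells the rod markers summed to 5807, 13085, 8188 and 20613 CPM in the control, 2, 4 and 8 week libraries. The bipolar markers summed there to 7808, 9885, 7565 and 7328 CPM. The limit on mitochondrial UMIs removed 63.6% to 86.0% of bipolar-like barcodes, so the bipolar cells described are the minority below it. Cox7a1 and Ndufa1 had 0 UMIs, which allows up to 0.0514 CPM as counted. In all, 8 of the 89 IDs had under 100 UMIs, among them Atp5pb with 10. Whether such IDs are little expressed or were missed by the annotation used for counting was not tested.

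In rods, the transcripts of the respiratory chain made up a larger share of the RNA at 2 weeks than in the control library, an intermediate share at 4 weeks, and nearly the control share at 8 weeks. The summed genes stood at 18693 CPM in control rods, 38222 CPM at 2 weeks, 26061 CPM at 4 weeks and 19713 CPM at 8 weeks, or 1.87%, 3.82%, 2.61% and 1.97% of all UMIs. The log2 ratio to control was 1.03 at 2 weeks (interval 1.02 to 1.04), 0.48 at 4 weeks (0.47 to 0.49) and 0.08 at 8 weeks (0.06 to 0.09). In single rods the median share of these UMIs followed the same order, from 1.56% in control cells to 3.2% at 2 weeks, 2.15% at 4 weeks and 1.81% at 8 weeks. Median depth per rod was alike in the first 3 libraries, at 867.5, 869 and 845 UMIs, and was 1030.0 UMIs at 8 weeks.

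The shift was spread over most of the genes. A gene was used in rods where its mean reached 20 CPM, which 76 of the 89 did. At 2 weeks, 56 of the 76 stood at least 1.5-fold above control, against 7.63% of the 5936 genes used, and 0 stood 1.5-fold below, against 27.9%. At 4 weeks the counts were 15 above, against 8.34%, and 0 below, against 12.4%. That count of 15 was 29 in rods with at least 1000 UMIs, 32 after thinning to 1000 UMIs and 26 with TMM scaling. It was 6 without rod cluster 3, described later, against 578 of all 6046 genes used there. At 8 weeks the counts in all rods were 1 above, against 2.24%, and 0 below, against 1.26%. The median log2 ratio of the 76 genes was 0.81, 0.44 and 0.09 at 2, 4 and 8 weeks, and that of all genes used was -0.27, 0.03 and 0.01, so at 2 weeks these genes moved up while the median gene moved down. The order of libraries was also shared by many: 60 of the 76 were highest in the 2 week library, where 16.2% of all genes were, and 43 followed the order 2 weeks, 4 weeks, 8 weeks, control, which 6.57% of all genes did.

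**Figure D1:**
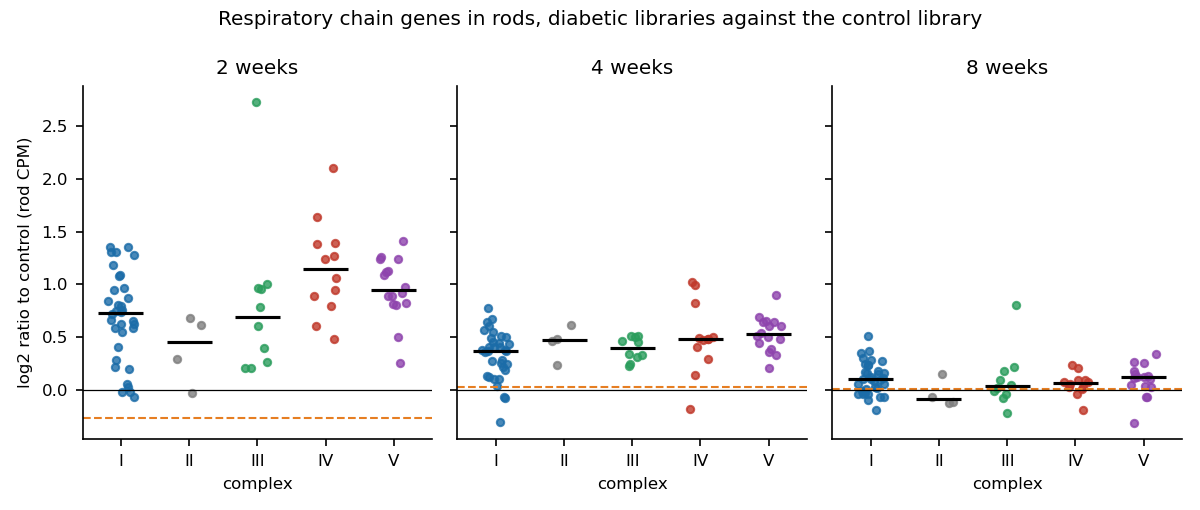
Log2 ratio of rod CPM to the control library (vertical axis) for each of the 76 genes used, by complex (horizontal axis), in 1 panel for each diabetic library. Complex IV has the highest median at 2 weeks, with Ndufa4 at 2.10. The highest single point there is the second Uqcrb ID of complex III, at 2.73, which stands at 0.80 at 8 weeks. The median of each complex lies near 0 at 8 weeks.

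Promoters of 4 of the genes are printed here because they span high and low rod ratios at 2 weeks, from Ndufa4 at 2.10 to Uqcrc2 at 0.21, and for the motifs that occur in them; they were picked after their values were seen. Each is the stretch of 250 bases before the annotated start, 5′ to 3′ on the gene's strand, from RefSeq on the GRCr8 assembly. Capitals mark ETS-type motifs (CCGGAAG or its reverse complement) and motifs of NRF1, a factor known to act on many respiratory chain promoters. Cox8a and Uqcrc2 hold a pair of ETS-type motifs each, Atp5mc2 holds overlapping NRF1 motifs, and Ndufa4 holds none of the letters searched.
Ndufa4, chr4:40975560-40975809, minus strand: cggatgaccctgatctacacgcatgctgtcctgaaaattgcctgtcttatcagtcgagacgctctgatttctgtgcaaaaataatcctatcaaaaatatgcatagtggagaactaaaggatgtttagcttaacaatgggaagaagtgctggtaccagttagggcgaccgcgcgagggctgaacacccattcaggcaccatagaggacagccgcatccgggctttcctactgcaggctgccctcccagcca
Cox8a, chr1:213833624-213833873, minus strand: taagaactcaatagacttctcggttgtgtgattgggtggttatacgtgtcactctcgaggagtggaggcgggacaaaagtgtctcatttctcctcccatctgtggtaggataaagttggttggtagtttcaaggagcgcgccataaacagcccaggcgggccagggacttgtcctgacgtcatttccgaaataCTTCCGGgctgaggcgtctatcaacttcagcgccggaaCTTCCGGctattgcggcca
Atp5mc2, chr7:135678219-135678468, minus strand: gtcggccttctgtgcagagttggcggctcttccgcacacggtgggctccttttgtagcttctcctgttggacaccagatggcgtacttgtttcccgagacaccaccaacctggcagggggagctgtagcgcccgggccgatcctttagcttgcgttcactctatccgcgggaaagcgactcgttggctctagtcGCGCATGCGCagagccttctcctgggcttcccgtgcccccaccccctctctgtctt
Uqcrc2, chr1:184598990-184599239, plus strand: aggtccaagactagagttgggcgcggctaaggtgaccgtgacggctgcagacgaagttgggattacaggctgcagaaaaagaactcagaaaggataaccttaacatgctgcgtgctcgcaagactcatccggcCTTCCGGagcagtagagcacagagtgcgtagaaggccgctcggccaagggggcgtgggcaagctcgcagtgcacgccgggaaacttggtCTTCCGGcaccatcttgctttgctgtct

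RefSeq promoters were matched for 73 of the 85 symbols and searched on both strands over 300 bases, from 250 before to 50 after the start. The NRF1 letters GCGCATGCG occurred in 8.22% of the matched promoters, against 1.66% of all 27457 promoters. The ETS letters CCGGAAG occurred in 26.0%, against 9.22%, and the YY1 letters AAGATGGCG in 12.3%, against 1.93%. At least 1 motif was found in 38.4% of the promoters of these genes and in 12.0% of all. Among the 13638 promoters of genes in the count matrices the shares were higher, at 2.56% for NRF1, 13.5% for ETS, 2.84% for YY1 and 17.5% for any. The ratio in rods differed little by motif: at 2 weeks the median log2 ratio was 0.89 over the 27 genes with a motif and 0.79 over the 37 without, a description of letters in a window and not of binding.

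Complex IV, cytochrome c oxidase, stood furthest above control in rods at 2 weeks. Its summed level was 5593, 14929, 8428 and 5973 CPM in the control, 2, 4 and 8 week libraries, and the log2 ratio was 1.42 (interval 1.40 to 1.43), 0.59 (0.57 to 0.61) and 0.10 (0.07 to 0.12). It made up 29.9% of all respiratory chain UMIs in control rods and 39.1% at 2 weeks, while the share of each other complex was lower at 2 weeks than in control. Of the 12 genes of complex IV used, 11 were at least 1.5-fold above control at 2 weeks and 3 at 4 weeks.

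Ndufa4 gave the largest part of that difference. This small subunit of cytochrome c oxidase stood at 1259.8 CPM in control rods, 5410.4 at 2 weeks, 2558 at 4 weeks and 1458 at 8 weeks. All 3 diabetic libraries were above control, and the log2 ratios were 2.10 (2.07 to 2.14), 1.02 (0.98 to 1.06) and 0.21 (0.17 to 0.26). Without Ndufa4, a grouping chosen after the values were seen, complex IV still had the highest ratio of the 5 complexes at 2 weeks, with a log2 of 1.14, and was close to complex I and complex V at 4 weeks, with 0.44.

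Cox8a, a small structural subunit, stood at 789 CPM in control rods, 1906 at 2 weeks, 1043 at 4 weeks and 926 at 8 weeks. Cox6c, another small subunit, stood at 434, 1133, 863 and 463 CPM and kept a log2 ratio of 0.99 at 4 weeks, second only to Ndufa4 there. Cox7b followed the same order, with 294, 914, 519 and 313 CPM. Cox4i1, the common form of the regulatory subunit 4, stood at 514, 1072, 631 and 539.9 CPM, and Cox6a1, the common form of subunit 6a, at 445, 1049, 624 and 469 CPM. Each of these was highest at 2 weeks and next highest at 4 weeks. Cox7c departed from the pattern: it stood at 629.9, 1092, 555 and 553 CPM, so it was above control at 2 weeks and below it later. Its log2 ratio was -0.18 (-0.25 to -0.12) at 4 weeks and -0.19 (-0.26 to -0.12) at 8 weeks.

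Complex I, NADH dehydrogenase, summed to 5595, 9851, 7268 and 5985 CPM in control, 2, 4 and 8 week rods, with log2 ratios of 0.82, 0.38 and 0.10. Of its 34 genes used, 23 were at least 1.5-fold above control at 2 weeks, 4 at 4 weeks and 0 at 8 weeks. The 3 with the highest rod levels are accessory subunits. Ndufb9 stood at 382, 699, 491 and 388 CPM. Ndufb11 stood at 307, 757, 448 and 329 CPM. Ndufa12 stood at 295, 568, 392.3 and 330.1 CPM, and all 3 had the same order of libraries.

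The nuclear genes for the catalytic core of complex I, which carries the flavin and the iron-sulphur clusters, behaved otherwise in rods at 2 weeks. This split was made after the values were seen. The 7 core genes summed to 890.2, 1145, 1181 and 887 CPM, with log2 ratios of 0.36, 0.41 and -0.01, and 0 of the 7 reached 1.5-fold at any time. All 30 accessory IDs summed to 4705, 8706, 6087 and 5099 CPM, with ratios of 0.89, 0.37 and 0.12. Of the 27 accessory genes used, 23 reached 1.5-fold at 2 weeks. The core sum was higher at 4 than at 2 weeks, although 4 of the 7 genes were not, and the accessory sum was the reverse. Ndufs1, the largest core subunit, had 35.3, 33.6, 28.6 and 36.8 CPM and the lowest ratio of all 76 genes at 4 weeks, a log2 of -0.30 (-0.59 to -0.02). Ndufb2, an accessory subunit of the membrane arm, had 147, 375, 191 and 156 CPM and the highest ratio of complex I at 2 weeks, a log2 of 1.36.

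Complex II, succinate dehydrogenase, which has no mitochondrially encoded subunit, showed the smallest difference at 2 weeks. It summed to 517, 697, 707 and 506 CPM, with log2 ratios of 0.43, 0.45 and -0.03, so 2 and 4 weeks were nearly level. The flavoprotein Sdha stood at 138, 135, 162 and 127 CPM and was not above control at 2 weeks (log2 -0.03, interval -0.16 to 0.10). The iron-sulphur protein Sdhb stood at 149, 228, 205 and 142 CPM. The membrane anchor Sdhc stood at 136, 219, 209 and 151 CPM. Both were higher than control at 2 and 4 weeks, and 2 of the 4 genes reached 1.5-fold at 2 weeks.

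Complex III, the cytochrome bc1 complex, summed to 2081, 3451, 2671 and 2100.2 CPM, with log2 ratios of 0.73, 0.36 and 0.01, and 6 of its 10 genes reached 1.5-fold at 2 weeks. The 3 most abundant are small supernumerary subunits. Uqcrb, by its main ID, stood at 530.35, 914, 657 and 526 CPM. Uqcrh, the hinge protein, stood at 394, 762, 462 and 374 CPM, and Uqcrq at 223, 436, 304 and 226 CPM. The redox subunit cytochrome c1, from Cyc1, was higher at 4 weeks than at 2, with 139, 160.1, 198 and 135 CPM and log2 ratios of 0.20, 0.51 and -0.04. The core protein Uqcrc2, whose promoter is given above, was also highest at 4 weeks, with 151, 175, 208 and 156 CPM. The second ID of Uqcrb had the highest ratio of the chain at 2 weeks, with 17.8, 119, 25.3 and 31.2 CPM and log2 ratios of 2.73, 0.51 and 0.80; how reads were divided between it and its near copy is uncertain. It was the 1 gene of the chain past 1.5-fold at 8 weeks.

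Complex V, ATP synthase, summed to 4908, 9295, 6987 and 5148 CPM, with log2 ratios of 0.92, 0.51 and 0.07; 14 of its 16 genes used reached 1.5-fold at 2 weeks and 7 at 4 weeks. Atp5f1b, the catalytic beta subunit, stood at 816, 975, 1046 and 779 CPM, a log2 ratio of 0.26 at 2 weeks and 0.36 at 4 weeks. The membrane sector genes Atp5me, with 333, 472, 539 and 317 CPM, and Atp5md were also higher at 4 weeks than at 2. Atp5mg, a subunit of the membrane sector, stood at 492, 1065, 717 and 539 CPM. Atp5if1, the inhibitor that limits ATP hydrolysis by the enzyme, stood at 291, 688, 455 and 347 CPM. Both had the common order of libraries.

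The c ring of ATP synthase is built from 1 protein encoded by 3 genes that differ in the import sequence. Atp5mc1 stood at 298, 562, 344 and 239 CPM in rods and had the lowest ratio of the chain at 8 weeks, a log2 of -0.32 (-0.42 to -0.21). Atp5mc2 stood at 338, 627, 477 and 375 CPM, and Atp5mc3 at 153, 332, 199 and 157 CPM. All 3 were above control at 2 and 4 weeks, and at 8 weeks they diverged. At that time the next lowest ratio was that of Uqcr10 in complex III, with a log2 of -0.22, and Ndufc1 of complex I stood at 0.51.

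**Figure D2:**
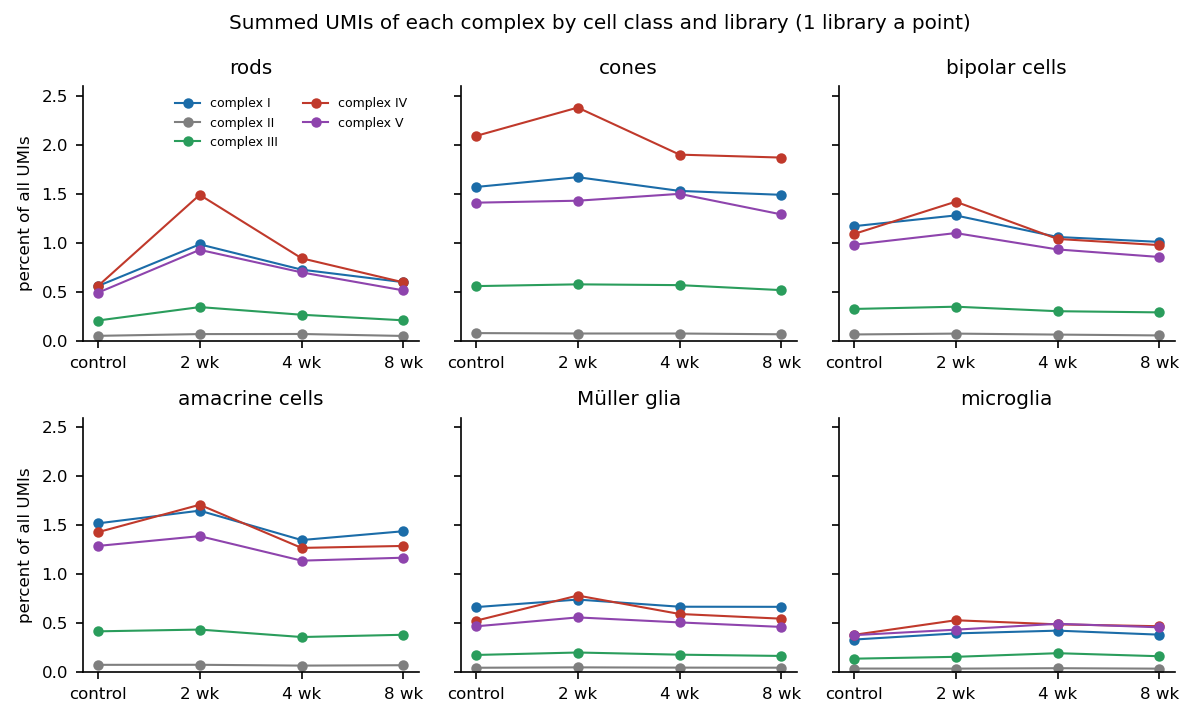
Percent of all UMIs (vertical axis) from each complex in the control, 2, 4 and 8 week libraries (horizontal axis), with 1 panel per cell class and 1 library per point. In rods complex IV goes from 0.559% in control to 1.49% at 2 weeks; in cones it is highest of the 5 complexes in each library.

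Other mitochondrial genes did not all follow in rods. The 13 mitochondrially encoded subunits had median log2 ratios of 0.89, -0.16 and 0.30 at 2, 4 and 8 weeks, so they matched the nuclear genes at 2 weeks and not at 4 weeks. The most abundant, Mt-co3 of complex IV, stood at 8281, 14834, 7995 and 7992 CPM. Summed, nuclear UMIs per mitochondrially encoded UMI were 0.410, 0.451, 0.603 and 0.389 in the 4 libraries, highest at 4 weeks. The filter on cells acts on the mitochondrially encoded genes themselves. Without them in the total, the nuclear genes made up 1.96%, 4.18%, 2.72% and 2.08% of the remaining UMIs.

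Lists of genes that assemble, feed or regulate the chain had median log2 ratios from -0.36 to 0.05 at 2 weeks, where that of all genes was -0.27. The 30 assembly factors used had median log2 ratios of -0.09, 0.11 and 0.07, with 3 past 1.5-fold above and 4 below at 2 weeks; Cox17, a copper carrier to complex IV and the most abundant, stood at 129.9, 283, 183 and 141 CPM, higher at 2 weeks unlike its list. The 12 genes of the citric acid cycle and pyruvate dehydrogenase used had medians of 0.05, 0.32 and 0.05, led in level by Mdh2, malate dehydrogenase, at 192, 305.5, 289 and 206 CPM. The 11 regulators of mitochondrial biogenesis used had medians of -0.36, 0.03 and 0.03, with 0 past 1.5-fold above and 4 below at 2 weeks. Yy1, the most abundant of them and a factor whose motif was searched above, stood at 128, 145, 105.5 and 112 CPM.

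The 10 electron carriers and ADP/ATP exchange genes used had medians of 0.21, 0.27 and 0.00, and Slc25a5, an ADP/ATP carrier, stood at 697, 1046, 841 and 753 CPM. The 68 mitochondrial ribosomal protein genes used had medians of 0.04, 0.17 and 0.04, and Mrpl14 stood at 159, 328, 193 and 175 CPM. The 71 cytosolic ribosomal protein genes used, which are short abundant transcripts like many respiratory chain genes, had medians of 0.49, 0.02 and -0.01, and 27 of them passed 1.5-fold above control at 2 weeks. At 2 weeks the cytosolic ribosomal and mitochondrially encoded genes were thus also above control, and at 4 weeks both lists were near or below it.

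Rod genes differed in direction at 2 weeks, some being above control and others below it. Gnat1, rod transducin, stood at 2849.6, 6783, 3066 and 2957.5 CPM. Pde6a, a rod phosphodiesterase subunit, stood at 1234, 935, 846 and 1285 CPM, and Nrl, the rod transcription factor, at 195, 153, 158 and 223.5 CPM. Summed, the 13 rod markers stood at 53349, 92598, 64217 and 62267 CPM. The markers of other cell types each summed to at most 751 CPM in rods in any library. The part of these movements in the result was not tested.

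Rods fell into 6 clusters, 5 of which held cells of every library in number. Cluster 0 held 63.4% of control rods, and its leading genes include Trib3, Chac1, Asns and Gdf15, genes of the amino acid and stress response. Cluster 1 held 58.9% of 4 week rods, and cluster 2 held 47.4% of 2 week rods. Cluster 3, with Sag, Gnat1 and Gngt1 among its leading genes, held 5.37%, 35.6%, 11.9% and 2.62% of rods in the control, 2, 4 and 8 week libraries, and respiratory chain genes made up 3.86%, 4.83%, 4.40% and 3.43% of its UMIs. Cluster 4 held 19.9% of control and 44.6% of 8 week rods. Clusters that are mostly of 1 library may be that library rather than a state of rods.

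The difference at 2 weeks was present in each of these 5 clusters but smaller than in all rods pooled. Within clusters 0, 1, 2, 3 and 4, the log2 ratio of the summed genes at 2 weeks was 0.67, 0.65, 0.64, 0.33 and 0.74. At 4 weeks it was 0.25, 0.25, 0.19, 0.19 and 0.38. At 8 weeks it was 0.15, 0.12, 0.06, -0.17 and 0.24, so cluster 3 was below control there. Without cluster 3, a choice made after seeing the data, the pooled ratios were 0.77, 0.35 and 0.18. Of the 76 genes, 44, 6 and 1 were then past 1.5-fold above control. Of all genes used there, 431 of 6045, 578 of 6046 and 136 of 6046 were. Ndufa4 kept 2 week ratios of 1.61, 1.54, 1.72, 1.23 and 1.70 within the clusters. Over single genes, 44 of the 76 were above control in all 5 clusters at 2 weeks, as were 11.6% of all genes, 32 at 4 weeks, as were 19.7%, and 8 at 8 weeks, as were 9.21%.

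**Figure D3:**
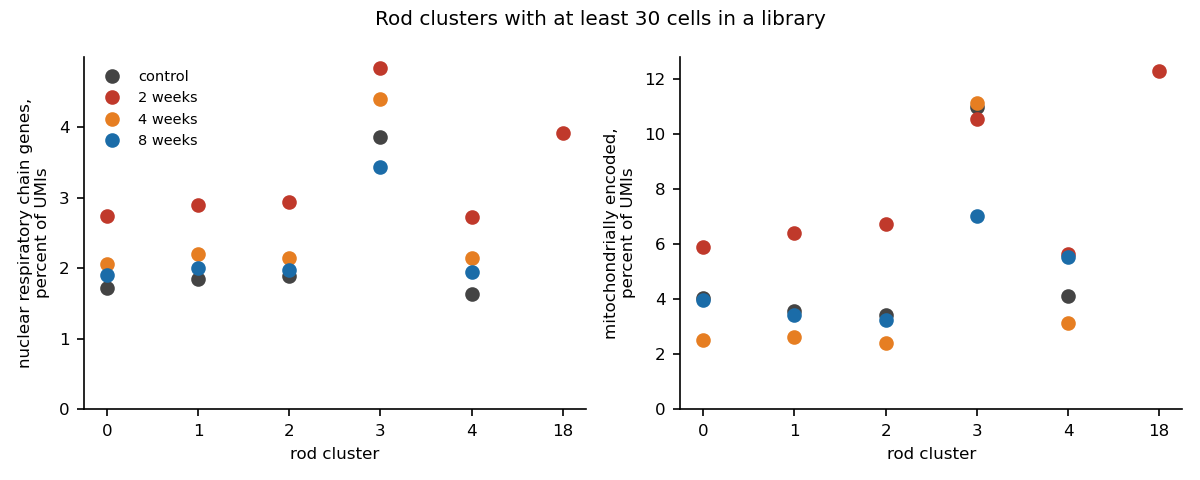
Percent of UMIs from the nuclear respiratory chain genes (left) and from mitochondrially encoded genes (right) in each rod cluster (horizontal axis) by library, with 1 library per point. The 2 week library is highest for the nuclear genes in clusters 0 to 4, and cluster 3 lies highest in each library, from 3.43% to 4.83%.

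Outside rods the summed genes lay closer to control than in rods at 2 and 4 weeks, and at 8 weeks only in Müller glia. The log2 ratios of the summed genes at 2, 4 and 8 weeks were 0.31, 0.09 and 0.01 in Müller glia, 0.15, -0.18 and -0.12 in amacrine cells, 0.22, -0.09 and -0.19 in bipolar cells, and 0.10, -0.03 and -0.12 in cones. In microglia they were 0.29, 0.37 and 0.25. Each of the 5 classes was above control at 2 weeks, and amacrine cells, bipolar cells and cones were below it at 4 and 8 weeks. The cone sum at 4 weeks was instead above control, by 0.005 to 0.01, with limits of 10% or 40% on mitochondrial UMIs, with every barcode or with doublets kept. In the paragraphs on single classes, the highest and lowest genes are those among the genes whose counting interval excluded 0. Whether these ratios differ from those of rods beyond variation between animals was not tested. RNA of rods was estimated in each class from 8 rod genes, and it moved with the 2 week library: it made up 3.03%, 10.8%, 4.49% and 2.37% of Müller UMIs and 2.88%, 13.4%, 4.83% and 3.77% of microglial UMIs. With that RNA subtracted, the 2 week ratio was 0.19 in Müller glia, 0.15 in amacrine cells, 0.18 in bipolar cells, 0.13 in cones, and in microglia it was -0.06.

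In Müller glia, the radial glia of the retina, 5 of the 75 genes used were past 1.5-fold either way at 2 weeks, against 17.3% of all genes used. At 4 weeks 1 was, against 19.4%, and at 8 weeks 3 were, against 16.1%. Complex IV had the highest ratio at 2 weeks, a log2 of 0.57, which was 0.41 with rod RNA subtracted. Ndufa4 stood at 562, 1404, 708 and 627 CPM, with a 2 week log2 ratio of 1.32 that was 0.76 with rod RNA subtracted. Atp5if1 was next, at 0.87, and the lowest were Ndufs4 at -0.53 and Atp5md at -0.39. At 4 weeks Cox4i2 was highest, at 0.57 (0.46 to 0.67), followed by Atp5f1d at 0.48, and Ndufc1 at -0.91 and Ndufs4 at -0.42 were lowest. At 8 weeks Ndufc1 was highest, at 0.71, with Atp5md at -0.70 and Ndufb11 at -0.59 lowest. The mitochondrially encoded subunits were above control in Müller glia in all 3 diabetic libraries, with summed log2 ratios of 0.87, 0.64 and 0.39.

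In amacrine cells, the inhibitory interneurons, 1 of the 77 genes used was past 1.5-fold at 2 weeks, against 12.9% of all genes used, 1 at 4 weeks, against 12.2%, and 1 at 8 weeks, against 5.98%. The genes nevertheless lay on 1 side of control at 4 weeks, where 73 of the 77 were below it with a median log2 ratio of -0.16. The median of all genes used there was 0.03. Amacrine clusters differed in size between libraries. Cluster 8 held 107, 197, 115 and 140 cells of the control, 2, 4 and 8 week libraries. Cluster 10 held 77, 62, 159 and 152, the 159 being out of 328 amacrine cells at 4 weeks. Cluster 19 had 129 of its 156 cells at 2 weeks. The part of these differences in the ratios was not tested. The highest at 2 weeks were the second Uqcrb ID at 1.96 and Atp5mc3 at 0.55 (0.44 to 0.65), and the lowest Atp5f1b at -0.47 (-0.55 to -0.39) and Ndufs4 at -0.45. The beta subunit of ATP synthase was thus below control in amacrine cells in the library where it was slightly above it in rods. At 4 weeks Ndufc1 at -1.07 and Ndufab1 at -0.48 were lowest, and Ndufv3 at 0.20 was highest. At 8 weeks Cox7b at -0.36 and Atp5me at -0.35 were lowest, and the second Uqcrb ID at 0.66 and Ndufc1 at 0.32 highest.

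In bipolar cells, which relay photoreceptor signals, 3 of the 77 genes used were past 1.5-fold at 2 weeks, against 14.3%, 3 at 4 weeks, against 18.0%, and 1 at 8 weeks, against 19.9%. At 2 weeks the second Uqcrb ID stood highest at 2.04, followed by Ndufa4 at 0.80 (0.50 with rod RNA subtracted), and Atp5f1b at -0.43 and Ndufs4 at -0.43 lowest. At 4 weeks Cox4i2 at 0.40 and Atp5me at 0.28 were highest, and Ndufb10 at -0.69 and Atp5mc1 at -0.49 lowest. At 8 weeks 71 of the 77 were below control, with a median log2 ratio of -0.19 where that of all genes used was 0.055, and with Ndufb2 at -0.49 and Ndufs5 at -0.42 lowest and the second Uqcrb ID at 1.02 and Ndufc1 at 0.46 highest. Rod RNA was estimated at 8.86%, 12.1%, 10.9% and 30.3% of bipolar UMIs, and the 8 week summed ratio of -0.19 was -0.03 with it subtracted. The makeup of the class also differed. Cluster 16, led by Pcp2, held 9 of 272 bipolar cells in control and 152 of 1030 at 2 weeks. It held 25 of 313 at 4 weeks and 69 of 373 at 8 weeks. The part of this in the ratios was not tested.

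In cones, the photoreceptors of daylight and colour vision, 6 of the 76 genes used were past 1.5-fold either way at 2 weeks, against 21.3%. At 4 weeks 1 of 75 was, against 21.5%, and at 8 weeks 3 of 76 were, against 16.2%. Cone libraries were small, at 86, 179, 57 and 108 cells. At 2 weeks the second Uqcrb ID stood at 2.64 and Ndufb6 at 0.59, with Sdha at -0.72 and Atp5f1b at -0.67 (-0.84 to -0.51) lowest. At 4 weeks Atp5f1d at 0.45 and Atp5if1 at 0.41 were highest, and Ndufs1 at -1.21 and Cox7c at -0.49 lowest. At 8 weeks the second Uqcrb ID at 1.21 and Atp5pf at 0.24 were highest, and Uqcr10 at -0.61 and Uqcrfs1 at -0.45 lowest. The cone Ndufa4 level was 3721, 4952, 3942 and 3436 CPM, a log2 ratio of 0.41 at 2 weeks where rods had 2.10.

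In microglia, the resident immune cells, 12 of the 73 genes used were past 1.5-fold either way at 2 weeks, against 29.2%, 12 at 4 weeks, against 32.0%, and 2 at 8 weeks, against 16.3%. All 12 at 4 weeks were above control, and 64 of the 73 lay above it there, with a median log2 ratio of 0.36 against 0.12 over all genes used. The makeup of the class differed: cluster 17, led by the chemokine genes Ccl4 and Ccl3, held 79 of 204 control cells and 8 of 79 cells at 4 weeks. In the control, 2, 4 and 8 week libraries the 13 Müller markers summed to 3729.9, 5809, 13744 and 13217 CPM in microglia, and the 4 erythroid markers to 3956, 1226, 21.5 and 287 CPM; their part in the result was not tested. At 2 weeks Ndufa4 at 1.65 (0.55 with rod RNA subtracted) and Ndufa12 at 0.99 were highest, and Atp5md at -0.75 and Sdhd at -0.69 lowest. At 4 weeks Uqcrfs1 at 0.78 and Uqcrb at 0.77 were highest, and at 8 weeks Ndufb8 at 0.60 and Atp5me at 0.56. Microglia numbered 204, 206, 79 and 160 cells.

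Atp5f1b and the second Uqcrb ID were at the ends of the order in several classes. Atp5f1b was among the lowest at 2 weeks in amacrine cells, bipolar cells and cones. The second Uqcrb ID was the highest at 2 weeks in rods, amacrine cells, bipolar cells and cones, with log2 ratios from 1.96 to 2.73. Its counts are uncertain for the reason given above.

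Cell classes differed widely in the share of RNA given to these genes, and here the 4 libraries served as replicates that differ in condition. Cones had the highest level, 56608 ± 3669 CPM (SD, n = 4 libraries), followed by amacrine cells at 46385 ± 4741, bipolar cells at 36148 ± 4479, rods at 25673 ± 8979, Müller glia at 20342 ± 2132 and microglia at 15029 ± 1597. The lowest cone library lay above the highest rod library. The limit on mitochondrial UMIs had removed unequal parts of the classes. By library it removed 14.89% to 32.05% of cone-like barcodes, 6.51% to 15.11% of amacrine-like and 63.6% to 86.0% of bipolar-like barcodes. For rods it was 6.77% to 12.27%, for Müller glia 2.36% to 6.6% and for microglia 4.82% to 9.9%. Rods and Müller glia overlapped, and the rod level of 18693 CPM in control was the only rod value under the Müller values of its own library. Complex IV took the largest mean share of these UMIs in cones, 36.3% ± 1.96 (SD, n = 4). Its mean share was 32.9% ± 4.24 in rods and lower in the other classes. In the 2 week library its share was 39.1% in rods and 38.8% in cones.

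Each class was tested against rods of the same libraries with edgeR's quasi-likelihood test over 10708 genes, with Benjamini-Hochberg adjustment and the library as a block; 81 of the 89 genes entered. In cones, 75 of the 81 rose against rods, where 17.5% of all genes did, and 1 fell, where 22.8% did. The median log2 fold change was 1.18, against -0.33 over all genes. By complex, the genes higher in cones numbered 34 of 35 in complex I, 2 of 4 in complex II, 10 of 10 in complex III, 13 of 16 in complex IV and 16 of 16 in complex V. Cox7c had the largest rise, a log2 fold change of 2.61 (SE 0.182, edgeR adjusted p = 4.29e-14), followed by Uqcr11 at 2.18 and Ndufb4 at 1.99. The gene called lower was Ndufa4l2, with 0 UMIs in cones, which allows up to 1.99 CPM, against 2.61 CPM in rods, so no fold is given; without any 1 of the libraries 0 were lower.

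**Figure D4:**
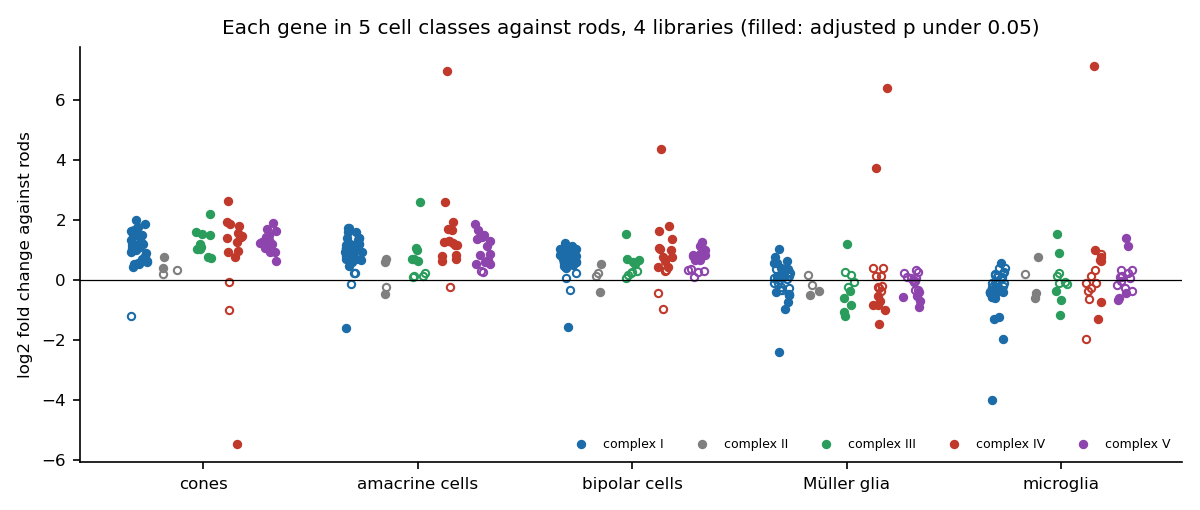
Log2 fold change of each gene against rods (vertical axis) in 5 cell classes (horizontal axis), 4 libraries; filled points have an edgeR adjusted p under 0.05. Cones, amacrine cells and bipolar cells lie mostly above 0, Müller glia and microglia on both sides of it.

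In amacrine cells 68 of the 81 were higher than in rods, where 36.8% of all genes were, and 2 were lower, where 37.2% were, with a median log2 fold change of 0.98 against -0.05 over all genes. Complex I gave 31 of 35, complex IV 15 of 16 and complex V 14 of 16 of the higher genes. Uqcr11 and Cox4i2 stood at a log2 fold change of 2.57 each. Cox6b2, best known as the testis form of subunit 6b, had 141 UMIs in amacrine cells and 2 in rods, a ratio of 213 (counting interval 57.8 to 1770.0). The second Ndufv3 ID, at -1.61, and Sdhd, a membrane anchor of complex II, at -0.50, were lower.

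In bipolar cells 60 of the 81 were higher than in rods, where 29.7% of all genes were, and 2 were lower, where 30.3% were, with a median of 0.66 against -0.09. Cox4i2 at 4.34, Ndufa4l2 at 1.78 and the second Cox6b1 ID at 1.64 had the largest fold changes. The second Ndufv3 ID at -1.57 and Sdhd at -0.40 were lower. Without the control library 44 were higher.

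Müller glia and microglia stood near rods. In Müller glia 10 of the 81 were higher, where 33.2% of all genes were, and 25 were lower, where 33.2% were; the median was -0.07, against -0.10 over all genes. In microglia 11 were higher, where 28.8% of all genes were, and 22 were lower, where 33.2% were, with a median of -0.11 against -0.24. These splits depended on scaling: with RLE size factors they were 21 higher and 14 lower in Müller glia and 23 and 9 in microglia, as the median of all genes moved to 0.14 and -0.02. They also rested on the 2 week library, without which Müller glia had 32 higher and 17 lower and microglia 30 and 8; leaving out the 4 week library gave 12 lower in microglia.

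Single genes stood further from rods. In Müller glia Cox4i2 had a log2 fold change of 6.39 (SE 0.229, edgeR adjusted p = 5.72e-23), and Uqcr11 was higher at 1.18. Ndufa4 was lower in Müller glia, at -1.48 (SE 0.219, edgeR adjusted p = 2.76e-07), as were the Ndufv3 copy at -2.42 and the Uqcrb copy at -1.22. Cox6b2 was also called higher in Müller glia, at 3.71, on 6 UMIs there. In microglia Cox6b2 had 29 UMIs, 139 times its rod level (35.2 to 1200.0), and Uqcr11 at 1.52 and Atp5f1e at 1.40 were higher. The lowest in microglia were the Ndufv3 copy at -4.01, Ndufs1 at -1.98 and Ndufa4 at -1.30.

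Uqcr11, the smallest subunit of complex III, was higher than in rods in all 5 classes, with a log2 fold change of 1.51 in bipolar cells. The genes for ATP synthase subunit c differed by class. Atp5mc1 stood at 1.32 in cones, Atp5mc2 at 1.12 in microglia (edgeR adjusted p = 9.77e-07), and Atp5mc3 at 1.66 in amacrine cells (edgeR adjusted p = 1.07e-10) and -0.63 in microglia (edgeR adjusted p = 5.25e-03). Ndufa4 was higher in cones, at 0.93. It did not pass the test in amacrine cells, at -0.25 (edgeR adjusted p = 0.298), or in bipolar cells, at -0.44 (edgeR adjusted p = 0.0769). Its direction varied with the library. In CPM, cones were below rods at 2 weeks, with 4952 against 5410, and above them in the other libraries. Amacrine and bipolar cells were above rods in control and at 8 weeks and below them at 2 and 4 weeks. Cox8a stood at 1.44 in cones and was lower in Müller glia, and Cox7a2l, a supercomplex factor, at 0.99 in microglia and -0.54 in Müller glia.

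Some classes held more of a paralogue than of the common form. Cox4i2, a form of subunit 4 known from lung and from oxygen sensing, made up 65.6% of Cox4i1 and Cox4i2 UMIs in Müller glia, 45.2% in pericytes or smooth muscle cells, 19.4% in bipolar cells, 5.67% in amacrine cells, 2.28% in rods, 1.02% in microglia and 0.696% in cones. Its Müller level was 1054, 1418, 1559.5 and 1096 CPM in the control, 2, 4 and 8 week libraries, so it was above 1000 CPM in each. Rods held it at 17.0 CPM. In bipolar cells it stood at 330.0 CPM (317 to 343).

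Ndufa4l2, a paralogue of Ndufa4 known as a hypoxia-induced gene, made up 67.2% of the Ndufa4 and Ndufa4l2 UMIs in pericytes or smooth muscle cells, at 1590.0 CPM (1520.0 to 1670.0), and at most 0.497% in the 6 classes compared, where it reached at most 9.14 CPM. These 351 cells came mostly from 1 library, with 40, 295, 4 and 12 cells in the control, 2, 4 and 8 week libraries, so no ratio between weeks is given for them. By library the Ndufa4l2 share was 94.4%, 63.9%, 81.0% and 98.3%, so the pooled share was set by the 2 week library. Ndufa4 stood at 876 CPM there, against 108.5 in control and 36.0 at 8 weeks. The control value rested on only 12 UMIs, and that of 8 weeks on 1. Rod RNA was not estimated in these cells, and rods held Ndufa4 at 5410.4 CPM at 2 weeks. How much of the 876 CPM came from rods was not tested. Cox6a2, the muscle form of subunit 6a, had 22 of its 34 UMIs in microglia, against 2 in rods, a ratio of 106 (26.0 to 927); all 22 were in the control library, and the other 3 libraries had 0. Cox8b had 21 of its 24 UMIs in amacrine cells, at 2.40 CPM, and Cox8c had 1 UMI in all. The symbol Cox7a2 was not matched, and Cox7a2l and Cox7a2l2 were both used.

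**Figure D5:**
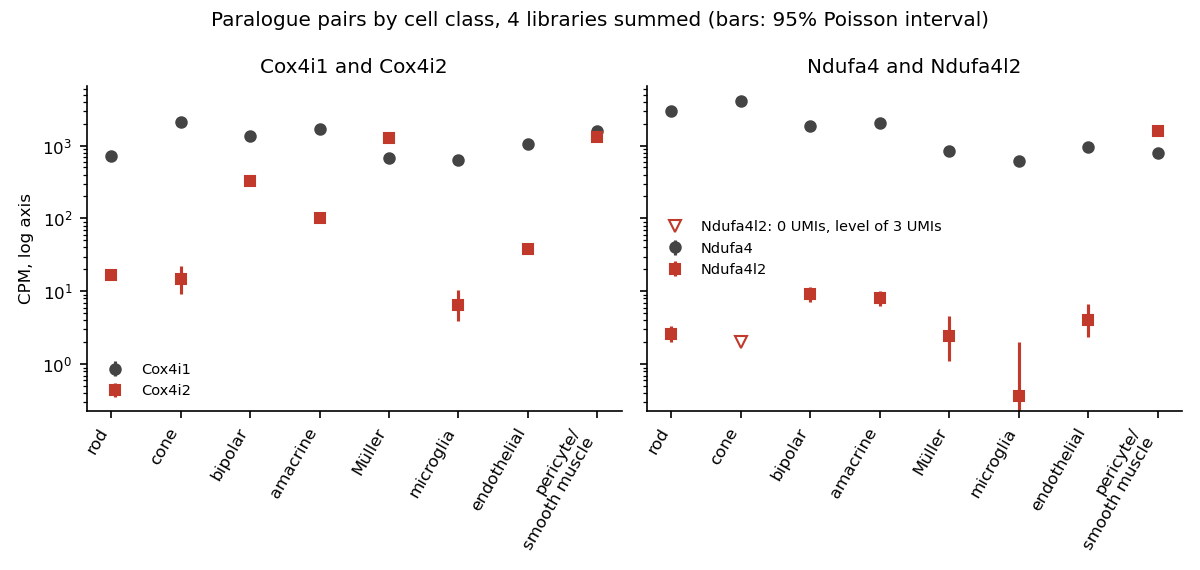
CPM (vertical log axis) of paralogue pairs by cell class (horizontal axis), 4 libraries summed; bars are 95% Poisson intervals. Cox4i2 exceeds Cox4i1 in Müller glia, at 65.6% of the pair, and Ndufa4l2 exceeds Ndufa4 in pericytes or smooth muscle cells, at 67.2%.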

How the data were processed

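Raw UMI count matrices were deposited by the authors, 1 per library; Cell Ranger 3.0.1 and the Rnor_6.0 build are named in the submitters' processing notes. Cells kept had at least 200 genes and at most 20% mitochondrially encoded UMIs, with doublets predicted by Scrublet removed; the smallest barcode held 500 UMIs. Clustering (scanpy 1.11.5, leidenalg 0.10.2) used 2000 variable genes, 30 components, 15 neighbours and resolution 1. Counts were summed per library and class. Ratios to control add 0.5 counts, and genes were used from a mean of 20 CPM and 30 UMIs over the pair of libraries; a count of 0 allows up to 3 UMIs. Intervals are exact conditional binomial at 95%. UMIs in a library are not animals, so intervals and floors cover counting error only.

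Classes were compared with rods by edgeR 4.0.16 (R 4.3.3), quasi-likelihood, with Benjamini-Hochberg adjustment. Classes of 1 library come from the same animal, so the library was the block in that model. DESeq2 1.42.0 was an alternative. Scripts were tested on simulated data. Named genes are the 3 with the highest rod level per complex, those with a tissue form or paralogue, the 2 highest and 2 lowest ratios per class and time whose interval excludes 0, the 3 largest called fold changes each way per class, and the most abundant gene of each other list; other genes named were chosen after their values were seen. The genes and lists were chosen with earlier results of these data known. Control replicate 1 was not analysed here. Values of some single genes are not reported here.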

Additional observations from a re-analysis of the deposited data

Results flagged for a closer look

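The summed respiratory chain genes lay on opposite sides of control in rods and in 3 other classes; the difference was not tested. At 4 weeks the log2 ratio was 0.48 in rods, -0.175 in amacrine cells, -0.091 in bipolar cells and -0.034 in cones. At 8 weeks it was 0.08 in rods, -0.121 in amacrine cells, -0.185 in bipolar cells and -0.123 in cones. Each value rests on 1 library per time. Some of these values depend on the processing. The cone value at 4 weeks was 0.005 to 0.01 under 4 of them, the rod value at 8 weeks was -0.01 with at least 1000 UMIs, and the bipolar value at 8 weeks was -0.03 with rod RNA subtracted.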

How the results depend on the processing

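With 1 library per time, ratios between weeks have no replicate check, and low genes are limited by depth. The log2 ratio of summed genes in rods at 2, 4 and 8 weeks was 1.01, 0.51 and 0.056 with up to 40% mitochondrial UMIs, 1.10, 0.56 and 0.04 with every barcode, 1.11, 0.63 and -0.01 with at least 1000 UMIs, 1.12, 0.62 and 0.037 after thinning, and 1.01, 0.45 and 0.13 as a mean over cells. With up to 10% mitochondrial UMIs it was 0.41 and 0.18 at 4 and 8 weeks, and without mitochondrially encoded UMIs 1.09 at 2 weeks. With TMM, which moved all genes by 0.333, 0.089 and 0.001, it was 1.37 and 0.57 at 2 and 4 weeks. Within clusters 0 to 4 it was 0.67, 0.65, 0.64, 0.33 and 0.74 at 2 weeks, 0.25, 0.25, 0.19, 0.19 and 0.38 at 4 weeks, and 0.15, 0.12, 0.063, -0.17 and 0.24 at 8 weeks. Chosen after seeing the data, it was 0.77, 0.35 and 0.18 without cluster 3, and 0.91 and 0.43 at 2 and 4 weeks without Ndufa4. Genes past 1.5-fold above control at 4 weeks numbered 29 with at least 1000 UMIs, 32 after thinning, 26 with TMM and 6 without cluster 3; at 8 weeks 2 with up to 10% mitochondrial UMIs and 0 with a mean of 100 CPM. Past 2-fold, 24, 1 and 0 were above; with a mean of 5 CPM, 1, 1 and 1 were below.

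Against rods, the higher and lower genes in Müller glia were 21 and 15 with up to 10% mitochondrial UMIs, 20 and 14 with DESeq2 and 21 and 14 with RLE; in microglia 22 and 9 with DESeq2 and 23 and 9 with RLE. In bipolar cells 34 were higher with up to 10%. Lower genes numbered 1 in amacrine cells and 0 in cones with up to 10%, 1 in bipolar cells and 2 in cones with up to 40%, and 1 in amacrine cells, 1 in bipolar cells and 0 in cones with DESeq2 or RLE. With no replicate block they were 1, 0 and 0, and bipolar cells had 4 with mitochondrially encoded genes left out. Leaving out each library gave 7 to 32 higher and 17 to 26 lower in Müller glia, 63 to 73 and 1 to 2 in amacrine cells, 44 to 68 and 0 to 2 in bipolar cells, 69 to 75 and 0 in cones, and 8 to 30 and 8 to 23 in microglia.

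Of 1506 other recomputed values, 1442 kept their sign. Of the 64 that did not, 32 were sums whose interval before recomputing included 0 and 16 were medians, which have no interval. The other 16 had intervals before recomputing that excluded 0, and their recomputed values follow. In rods at 8 weeks they were complex IV and complex V with at least 1000 UMIs (-0.011 each). With up to 10% mitochondrial UMIs they were complex III in amacrine cells (-0.004) and complexes I and II in bipolar cells (-0.095 and -0.144), all at 2 weeks. At that limit they also included complex III in bipolar cells (0.044) and complex V in cones (0.03), both at 8 weeks. The cone sum at 4 weeks changed sign with limits of 10% (0.01) and 40% (0.009), every barcode (0.009) or doublets kept (0.005). With rod RNA subtracted, complex IV in bipolar cells at 8 weeks did (0.002). So did, in microglia at 2 weeks, the sum (-0.06) and complexes I (-0.103), III (-0.082) and V (-0.076). The cause was not tested.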
